A study of Homo sapiens with 8 samples.

Results

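The genes that encode the proteins of the cytosolic ribosome were described in U2OS cells, a human osteosarcoma line, with and without knockdown of WSB2. Members were the protein-coding genes of GENCODE 29 whose name is RPL or RPS followed by a number, with or without a final A or X, together with RPLP0, RPLP1, RPLP2 and RPSA. The rule found 77 of 58735 genes, 46 for proteins of the large subunit and 31 for proteins of the small subunit, on 21 chromosomes with 12 on chromosome 19. All 77 passed the filter on low reads and are among the 16528 genes tested. Cells carried a control short hairpin RNA construct (shControl, labelled WT in the sample records) or an shRNA against WSB2 (shWSB2, called KD here). Each kind was left unstimulated or received TNF-α for 5 h. The study names a control shRNA for the sequenced cells, but some of its supplementary legends call the control an empty vector. Whether the control cells express a hairpin is therefore not known here. TNF-α is a cytokine that activates NF-κB, and WSB2 is a substrate receptor of a ubiquitin ligase that the study examined as a regulator of the NF-κB subunit RelA. Each of the 4 groups had 2 libraries made from extracted total RNA, 8 in all. The study's methods do not say whether poly(A) RNA was selected or rRNA was removed. Stable knockdown lines were made by lentiviral infection and puromycin selection, which the control shRNA cells share. Which of the WSB2 shRNAs was sequenced and the TNF-α concentration are not given in the sources used here, so an effect of 1 hairpin or 1 infected population cannot be told apart from an effect of less WSB2. Nothing says that replicates came from separate cultures, and p-values then measure only the spread between these libraries, which may be technical.

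Each ribosome is built from a small subunit, which reads the mRNA, and a large subunit, which joins amino acids and lets the new protein out through a tunnel. Most of its proteins are present in a single copy, while the stalk proteins RPLP1 and RPLP2 are present in more, and their mRNAs are among the most abundant of a growing cell. Most of these mRNAs begin with a C and a run of pyrimidines, the 5′ terminal oligopyrimidine (TOP) tract, through which the mTORC1 pathway and LARP1 set their translation and stability. Human cells also carry very many processed pseudogenes of these genes, so that reads of a member and of its copies are hard to keep apart.

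The start sites of 62 of the 77 members were found in the RefSeq promoter table (GRCh38.p14). A TOP-like start was defined as a C followed by at least 4 pyrimidines, C or T, with the C within 5 bases of an annotated start. It was found in 53 of these 62 members, or 85.5%. The same search, on the strand of the gene, found it in 28.2% of all 14896 protein-coding genes of the table. Of 69 mitochondrial ribosomal protein genes it was found in 16, or 23.2%. The windows below run from 8 bases before the start to 22 bases from it on, 5′ to 3′ on the strand of the gene, with the tract in capitals. They are shown for members with large falls in unstimulated KD cells (RPS9, RPL35 and RPL36). The others are a member that did not pass the test there (RPS24), the member that rose (RPL36A) and RPS26. RPS26 had no TOP-like start within 5 bases of the start, but a C followed by 4 pyrimidines lies just beyond that limit.
RPS9 (chr19:54200850-54200879, plus strand): ttccgcgCCTCTTTCTCagtgaccgggtgg
RPL35 (chr9:124861936-124861965, minus strand): cctaCTTCCTCTTTCCCTCggagcgggcgg
RPL36 (chr19:5690287-5690316, plus strand): gcgccagCCCTTCCgccacggccgtctctg
RPS24 (chr10:78033855-78033884, plus strand): tcgtggttCTCTTTTCCTCCTTggctgtct
RPL36A (chrX:101391003-101391032, plus strand): cgcggtttCTTTCTTTCCgcgccgatagcg
RPS26 (chr12:56041910-56041939, plus strand): ataacctcgattttcttccgccatccggct
The tract was therefore present in members that fell, in a member that did not pass the test and in the member that rose.

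The libraries held 15601098 to 18677023 reads on genes. WSB2 itself was at 27.7 and 28.0 FPKM (fragments per kilobase of gene, scaled by the size of the library) in control cells and at 8.38 and 8.52 in KD cells without stimulation. With TNF-α the values were 25.0 and 25.3 in control and 9.002 and 9.18 in KD cells. The mesenchymal markers VIM (146 to 240 FPKM) and SPARC (216 to 293 FPKM) were high in every library. COL1A1 was at 172 to 269 FPKM and FN1 at 66.4 to 164 FPKM. Other markers chosen for this line were lower, CDH2 at 12.5 to 18.9 FPKM and RUNX2 at 1.29 to 2.94 FPKM. EPCAM stayed at or under 0.482 FPKM and PTPRC at or under 0.0770 FPKM. The unstimulated KD libraries stood apart from the other 6. Mitochondrial genes took 4.10% and 4.42% of their reads against 1.11% to 2.03% elsewhere, and the mean GC content of their reads was 50.1% and 50.6% against 53.2% to 53.8%. They had reads on 26225 and 26397 genes, against 22072 to 22957 elsewhere. The library size behind their FPKM was 1.21 times the reads on genes in each, against 0.925 to 1.03 elsewhere. The members as a group and most lists of other genes are given below without and with a correction for GC content and length, and the part of the mitochondrial reads in the results was not tested.

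Ribosomal protein genes were high in all groups. The mean over the 8 libraries ranged from 0.836 FPKM for RPL36A to 1612 FPKM for RPL8, with a median of 235 FPKM against 2.97 FPKM for all genes tested. The median was 195 FPKM for the large subunit and 248 FPKM for the small subunit, 55 members were over 100 FPKM, and 28 were among the 100 genes with the highest mean. RPL8, of the core of the large subunit, RPS2, of the mRNA entry site of the small subunit, RPS12, RPL13A and RPL41, the shortest of these proteins, had the highest means and held 26.0% of the summed FPKM of the members. RPL36A, RPS10, RPL17 and RPL26 were among the lowest, from 0.836 to 9.31 FPKM.

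Several counts bear on the spread of these levels. FPKM was computed by the authors on the union of all annotated exons, whose median length in the members was 5.74 times the coding length, so the levels of short mRNAs are understated. Reads on exons shared with other genes may be counted for neither gene. RPS10 shares 39.4% of its exon length with the read-through gene RPS10-NUDT3, and RPL17 shares 24.8% with RPL17-C18orf32. RPS2 shares 25.6% with other genes, the median over the members was 3.26%, and 1 member shared over 50%. GENCODE 29 names 1132 pseudogenes of 76 of the members. In 12 members over 10% of the reads of the gene and its pseudogenes together fell on the pseudogenes. The part was 66.5% for RPS28, 64.5% for RPL9, 59.0% for RPS10, 22.9% for RPS2 and 11.2% for RPSA. The levels and changes of these 12 members are uncertain for that reason.

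**Figure D1:**
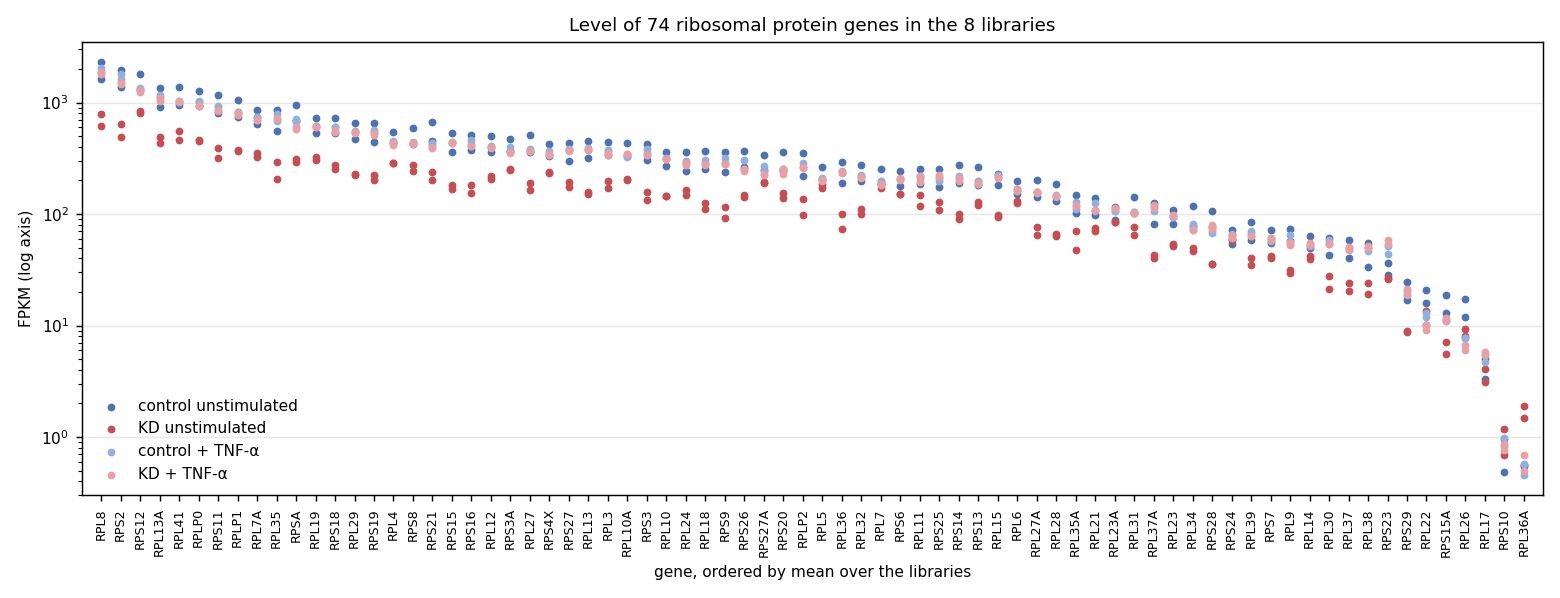
FPKM on a log axis of 74 of the 77 ribosomal protein genes in the 8 libraries, ordered by the mean, with 2 points per group. The points of unstimulated KD cells lie below the others for most genes, and RPL36A, at the right end, shows the opposite order.

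The members took up 8.96% and 6.86% of the reads in unstimulated control libraries and 4.59% and 4.17% in unstimulated KD libraries. After TNF-α they took up 7.20% and 7.17% in control cells and 6.72% in each KD library. The group means were thus 7.91% ± 1.48 (SD, n = 2), 4.38% ± 0.295, 7.18% ± 0.0183 and 6.72% ± 0.000859. The share in KD cells was 0.554 of that in control cells without TNF-α and 0.935 of it with TNF-α. Groups of 2 against 2 cannot give a two-sided permutation p below 0.333, and the shares were not tested. The 2 unstimulated control libraries lay further apart than the means of the TNF-α groups.

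Large subunit genes took 5.45% and 4.20% of the reads in unstimulated control cells and 2.84% and 2.58% in unstimulated KD cells. The ratio of large to small subunit reads stayed between 1.55 and 1.65 in the 8 libraries. It was 1.55 and 1.58 in unstimulated control cells and 1.62 in each unstimulated KD library, and 1.59 and 1.58 against 1.65 and 1.64 after TNF-α, so that the KD libraries lay above the control libraries in both conditions.

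**Figure D2:**
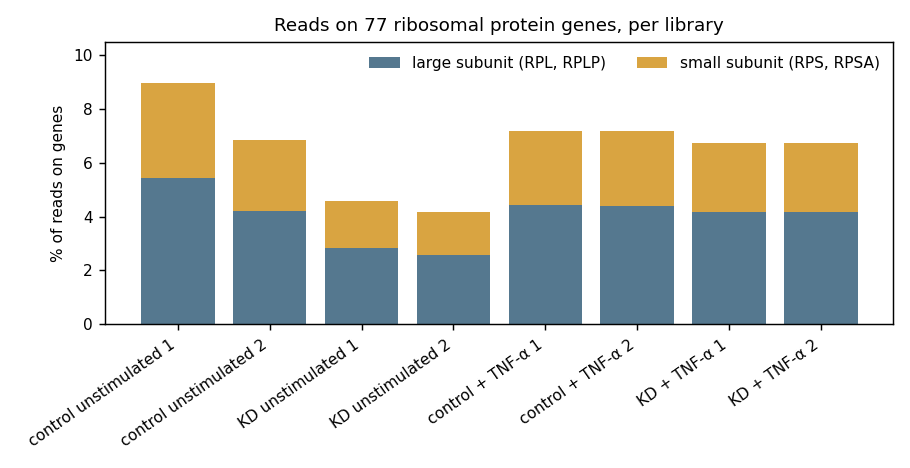
Share of the reads on genes, in percent, that fell on large subunit (blue) and small subunit (yellow) ribosomal protein genes in each library. The unstimulated KD libraries reach 4.59% and 4.17%, and the other 6 lie between 6.72% and 8.96%.

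Replicates within a group did not agree equally well. In unstimulated control cells, replicate 1 was higher than replicate 2 for 77 of 77 members, with a median log2 difference of 0.48 against -0.00 over all genes tested. In unstimulated KD cells replicate 1 was higher for 68 members, with a median of 0.12. After TNF-α the counts were 35 in control cells and 39 in KD cells, with medians of -0.01 and 0.00. The median coefficient of variation over the members was 23.9% in unstimulated control cells and 1.72% in KD cells after TNF-α. The differences among members were kept within these pairs: the SD over members of the log2 difference was 0.11 for the unstimulated control pair and 0.063 for the KD pair after TNF-α. Between an unstimulated KD library and a library of another group this SD was 0.37 to 0.52.

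The comparison of KD and control cells without TNF-α asks what less WSB2 does in unstimulated cells. Of the 77 members, 70 fell, 1 rose (RPL36A) and 6 did not pass the test (limma, adjusted p under 0.05). Over all genes tested, 30.2% were called lower and 29.8% higher. The median log2 fold change of the members was -1.07, against -0.00 over all genes tested, and they ranged from -1.53 to 0.78. KD libraries were below both control libraries in 73 members, against 39.7% of all genes tested. In bulk RNA scaled to library size, a lower level in every cell, fewer cells with a high level and a rise of other RNA cannot be told apart.

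At the mRNA channel of the small subunit, RPS2 was at 1961 and 1366 FPKM in unstimulated control cells and at 645 and 495 in KD cells. Both KD libraries were under the lower control library. Its log2 fold change of -1.53 (SE 0.222, limma adjusted p = 7.49e-04) was the largest fall among the members. With 22.9% of the joint reads on its pseudogenes, the size of this fall is uncertain. RPS3, another protein of the entry channel, which is also a DNA repair factor, was at 429 and 303 FPKM against 156 and 135. RPS9, which helps to set decoding accuracy, was at 361 and 239 FPKM against 116 and 92.6. The fall of both was larger than the spread of the replicates, with log2 fold changes of -1.31 for RPS3 and -1.49 for RPS9. RPSA, on the exit side of the channel and also known as the laminin receptor precursor, was at 949 and 681 FPKM against 315 and 294, a log2 fold change of -1.40. Its pseudogenes held 11.2% of the joint reads, so this change is uncertain too. RPS26, which contacts the mRNA ahead of the start codon, fell by 1.10 on the log2 scale. RPS19, the member first linked to Diamond-Blackfan anaemia, fell by 1.34.

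Other small subunit members moved less. RPS6, the substrate of the S6 kinases, was at 244 and 180 FPKM in control cells and at 152 and 151 in KD cells. Its log2 fold change was -0.46 (SE 0.140, limma adjusted p = 0.0213), and the adjusted p was 0.0783 and 0.0872 without KD replicate 1 and 2, 0.0637 without a filter on low reads and 0.0748 with only the 4 libraries compared. With libraries scaled to total reads its log2 fold change was -0.18 (limma adjusted p = 0.197). RPS27A, made as a fusion with ubiquitin, was at 336 and 251 FPKM against 189 and 194, a log2 fold change of -0.60. RPS24 was at 71.2 and 54.0 FPKM in control cells and at 59.4 and 58.7 in KD cells. The KD libraries lay between the control libraries, and its log2 fold change was -0.07 (limma adjusted p = 0.643). RPS23, of the decoding centre, was at 36.1 and 28.5 FPKM against 26.7 and 25.9, with a log2 fold change of -0.28 that did not pass the test (limma adjusted p = 0.0953). RPS10, with 20 to 54 reads per library, also did not pass (0.17).

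The stalk of the large subunit, which recruits the elongation factors, is formed by RPLP0, RPLP1 and RPLP2. RPLP0, a common reference gene for RT-PCR, was at 1263 and 938 FPKM in control cells and at 457 and 450 in KD cells. RPLP1 was at 1061 and 744 FPKM against 375 and 365. RPLP2 was at 350 and 218 FPKM against 138 and 98.9. All 3 fell, with log2 fold changes of -1.26, -1.26 and -1.24 and limma adjusted p of 5.12e-04, 6.3e-04 and 0.00242. RPL35, at the end of the exit tunnel, was at 861 and 551 FPKM in control cells and at 294 and 206 in KD cells. Both KD libraries were under the lower control library, with a log2 fold change of -1.48 (SE 0.244, limma adjusted p = 0.00132). RPL10, which is added late and completes the subunit, RPL13A and RPL41 fell by 1.10, 1.25 and 1.17 on the log2 scale.

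RPL5 and RPL11 form a particle with the smallest rRNA of the large subunit, and free RPL5, RPL11 and RPL23 bind MDM2. RPL5 was at 264 and 203 FPKM in control cells and at 185 and 170 in KD cells. RPL11 was at 252 and 187 FPKM against 148 and 119. RPL23 was at 109 and 80.9 FPKM against 51.2 and 53.7. The log2 fold changes were -0.39, -0.70 and -0.83, and all 3 were smaller in size than the median of the members. That of RPL5 had a limma adjusted p of 0.0342. This was 0.0860 without a filter on low reads, 0.118 with only the 4 libraries compared and 0.423 with libraries scaled to total reads. The call of RPL5 was also lost without control replicate 1, either KD replicate or any 1 library with TNF-α. Its log2 fold change was then -0.45 to -0.20. RPL11 had a limma adjusted p of 0.00724, and its call was lost without KD replicate 2, with a log2 fold change of -0.55. RPL22, best known for binding a viral RNA, was at 20.8 and 15.8 FPKM against 13.6 and 10.0 and fell by 0.59 on the log2 scale. Its limma adjusted p was 0.0145, and it was 0.0538 without a filter on low reads and 0.0917 with libraries scaled to total reads. The call of RPL22 was also lost without control replicate 1 and without KD replicate 2, with log2 fold changes of -0.41 and -0.39. RPL7, RPL23A and RPL17 did not pass the test, with log2 fold changes of -0.28, -0.25 and -0.16.

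RPL36A was the member that rose. It was at 0.555 and 0.554 FPKM in control cells and at 1.49 and 1.88 in KD cells, from 33 and 38 reads to 117 and 144. The KD libraries were above both control libraries, with a log2 fold change of (FPKM + 1) of 0.78 (SE 0.104, limma adjusted p = 5.21e-04). The ratio of the mean FPKM values was 3.04, since the added 1 understates changes at this level. With so few reads, and with reads on shared exons possibly counted for neither gene, the level and the change of RPL36A are uncertain. Its paralogue RPL36AL, at 129 and 102 FPKM in control against 119 and 101 in KD cells, did not pass the test (-0.07).

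**Figure D3:**
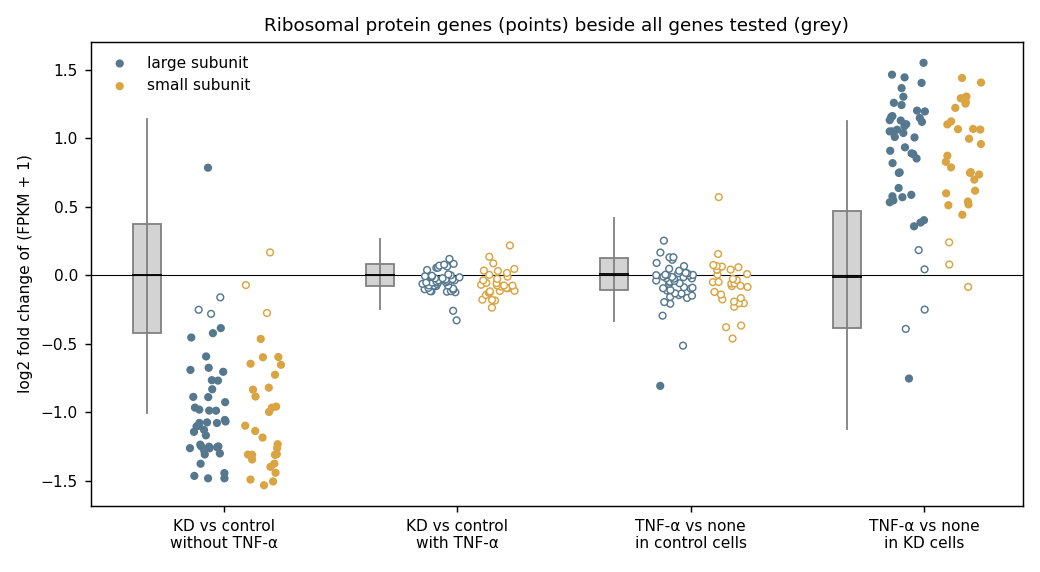
Log2 fold change of (FPKM + 1) of the large subunit (blue) and small subunit (yellow) ribosomal protein genes in 4 comparisons, filled where the limma adjusted p was under 0.05. Beside them in grey are the median, the middle of the distribution (box, 25th to 75th percentile) and the 5th to 95th percentile (line) of all 16528 genes tested; the members have a median of -1.07 without TNF-α and of -0.05 with TNF-α in the first 2 comparisons.

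The size of the fall was not the same in all members, and it went with their base composition. The GC content of the members ranged from 43.1% to 63.5%, with a median of 49.9% against 49.4% over all genes tested. Over the 77 members Pearson's r of the log2 fold change was -0.62 with GC content and -0.65 with the log of the level. These are descriptions over genes that share the same 8 libraries. Over all 16520 tested genes with a GC content, Spearman's rho with GC content was -0.70. The 18 members with a GC content of at least 55% had a median log2 fold change of -1.33, and all genes of that range had -0.50. For the 27 members from 48% to under 55% the medians were -1.13 and -0.11. The 32 members under 48% had a median of -0.75 while all genes of that range had 0.36.

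After each library was corrected for GC content and gene length with smooth curves, the 3 medians of the members were -0.85, -0.92 and -0.85. The median of all members was then -0.88, with 73 called lower and 2 higher. With libraries scaled to total reads, which moved the median of all genes to 0.13, the median of the members was -0.79, with 65 lower and 1 higher. Without control replicate 1 the median was -0.84 with 68 lower, and without control replicate 2 it was -1.30 with 75 lower. The 53 members with a TOP-like start had a median of -1.07 and the 9 without had -1.08. Among those without, RPS26, RPL9, RPL15 and RPL27 have a C and a run of pyrimidines beyond the distance searched from an annotated start. The split therefore depends on where the start is annotated, and whether the tract bears on the fall was not tested.

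**Figure D4:**
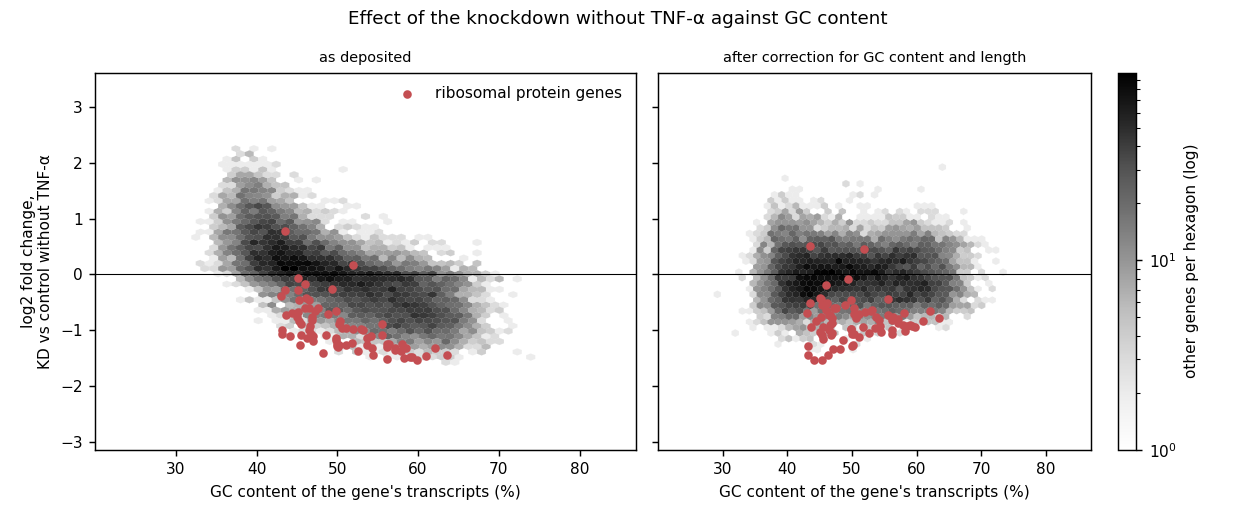
Log2 fold change of KD against control cells without TNF-α plotted against the GC content of the transcripts in percent, before (left) and after (right) the correction for GC content and length; red points are ribosomal protein genes and grey hexagons the other genes tested. The members lie below most genes of their own GC content on both sides, with medians of -1.07 and -0.88.

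With TNF-α, KD and control cells were compared as in the study's question on NF-κB targets. None of the 77 members was called in either direction by limma, none had an unadjusted p under 0.05 and none was called by voom on the recovered reads. Over all genes tested, 0.0605% were called higher and 0.0545% lower, and 4.42% and 3.73% had an unadjusted p under 0.05. The median log2 fold change of the members was -0.05, against -0.00 over all genes tested, with 60 members below 0 and 17 above. KD libraries were below both control libraries in 42 members, against 22.3% of all genes tested. RPS2 was at 1619 and 1793 FPKM in control cells and at 1522 and 1477 in KD cells after TNF-α. RPSA was at 708 and 687 FPKM against 607 and 578. In both, the 2 KD libraries lay under the 2 control libraries, but the log2 fold changes of -0.18 and -0.24 did not pass the test.

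The smallest p-values in this comparison belonged to RPL22, RPS23 and RPL26. RPL22 was at 12.9 and 11.9 FPKM in control against 10.2 and 9.17 in KD cells, a log2 fold change of -0.33 (limma adjusted p = 0.679). RPS23 was at 44.2 and 52.2 FPKM against 53.5 and 58.7, a log2 fold change of 0.22 (limma adjusted p = 0.767). RPL26, at the tunnel exit, was at 7.78 and 7.74 FPKM against 6.63 and 6.02, with -0.26 (limma adjusted p = 0.780). Tests on 2 libraries per group do not show that these levels are the same.

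In control cells, TNF-α moved few members past the test. RPL26 fell from 17.2 and 11.9 FPKM to 7.78 and 7.74, below both unstimulated libraries, with a log2 fold change of -0.81 (SE 0.157, limma adjusted p = 0.0326). No member was called higher. Over all genes tested, 3.1% were called higher and 1.14% lower. The median of the members was -0.05, with 50 below 0 and 27 above, and the TNF-α libraries were under both unstimulated libraries in 5 members, against 19.9% of all genes. RPS23 was at 36.1 and 28.5 FPKM without TNF-α and at 44.2 and 52.2 with it, and its log2 fold change of 0.57 had a limma adjusted p of 0.0519. These values rest on which unstimulated control library is used: without replicate 2 the median was -0.29, and without replicate 1 it was 0.19. The call of RPL26 was lost when either TNF-α control library was left out, with limma adjusted p of 0.157 and 0.177, and when any KD library was left out, with 0.0622 to 0.0655.

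In KD cells, 69 members rose with TNF-α, 1 fell (RPL36A) and 7 did not pass the test. Over all genes tested, 31.1% were called higher and 31.4% lower. The median log2 fold change of the members was 0.96, against -0.01 over all genes. This comparison shares the unstimulated KD libraries with the comparison of KD and control cells without TNF-α, so the values of each are given side by side only. RPL35 rose from 294 and 206 FPKM to 714 and 731, a log2 fold change of 1.55 (SE 0.244, limma adjusted p = 9.5e-04). RPL37A rose from 43.0 and 40.5 FPKM to 113 and 121, a log2 fold change of 1.46. RPL36 rose from 101 and 73.7 FPKM to 236 in each library, and RPS9 from 116 and 92.6 to 283 in each, with 1.44 for both. In all 4 the stimulated libraries were well above the unstimulated ones.

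The stalk genes RPLP0, RPLP1 and RPLP2 rose by 1.05, 1.09 and 1.16 on the log2 scale, RPS2 by 1.41 and RPSA by 0.96. RPS23 rose by 1.06 although it had not passed the test in the comparison of KD and control cells without TNF-α. RPL22 was at 13.6 and 10.0 FPKM without and 10.2 and 9.17 with TNF-α, RPL26 at 9.22 and 8.02 against 6.63 and 6.02, and neither passed the test, with log2 fold changes of -0.25 and -0.39. RPL36A fell from 1.49 and 1.88 FPKM to 0.496 and 0.686, near its level in control cells. With libraries scaled to total reads, which moved the median of all genes to -0.19, 53 members were higher and 5 lower, with a median of 0.58. After the correction for GC content and length the median was 0.76 with 69 higher.

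The difference between the effect of the knockdown with and without TNF-α was tested as an interaction. It was positive and called for 62 members and negative for RPL36A, while 23.8% of all genes tested were called positive and 22.3% negative. The median of the members was 1.02. RPL35 had the largest, 1.46 (SE 0.345, limma adjusted p = 0.0110), and RPS28 had 1.44, with the doubt that its pseudogenes raise. The 14 members without a call included RPL5, RPL11, RPS6, RPS27A, RPL22, RPL26 and RPS24. Without replicate 2 of unstimulated KD cells 40 members were called positive, and RPL8, RPLP2, RPL13A and RPL41 were not, with limma adjusted p of 0.0544 to 0.0795.

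**Figure D5:**
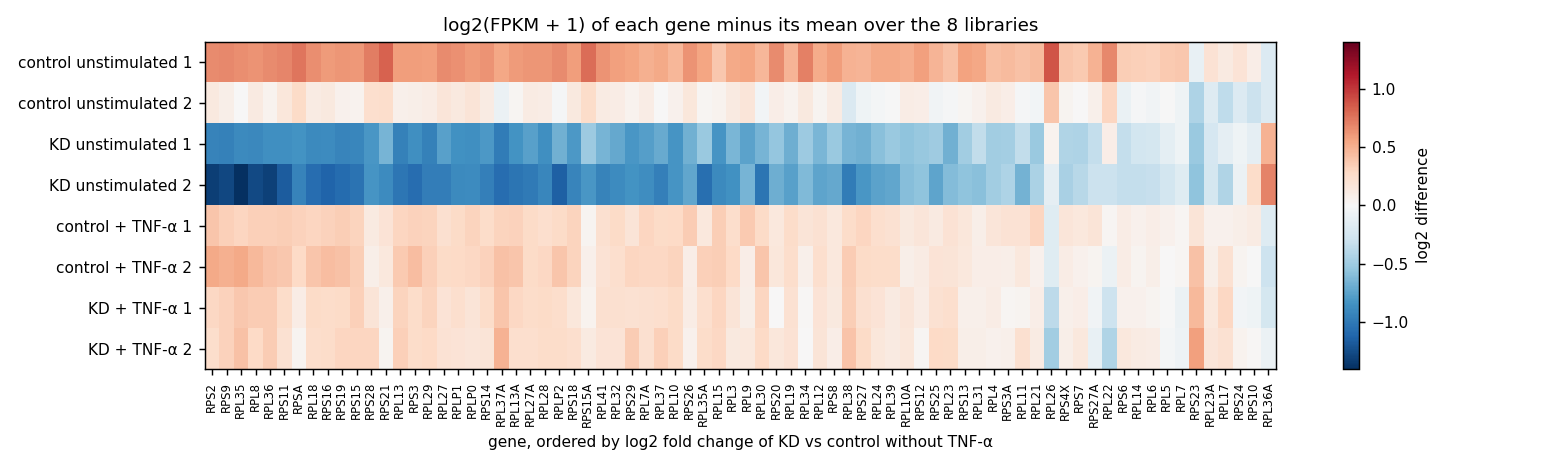
Log2(FPKM + 1) of 74 of the 77 ribosomal protein genes, each minus its mean over the 8 libraries, with genes ordered from the largest fall to the rise in unstimulated KD cells and blue for low and red for high values. The 2 unstimulated KD libraries are low for most genes, unstimulated control replicate 1 is the highest for most, and RPL26 is lowest in the KD libraries with TNF-α.

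The genes around the ribosomal proteins were read from lists, each without a test of its own. FAU, which encodes a ribosomal protein fused to a ubiquitin-like protein, and RACK1, a scaffold on the small subunit, are ribosomal proteins with names outside the rule. Both fell in unstimulated KD cells, with log2 fold changes of -1.45 and -0.99, and rose with TNF-α in KD cells. Of 7 tested paralogues of ribosomal proteins 3 fell (RPL39L, RPL10L and RPL26L1) and none rose, with a median of -0.23 and of -0.62 after the correction for GC content and length. Of 78 mitochondrial ribosomal protein genes, whose products form the separate ribosome of mitochondria, 50 fell and 5 rose, with a median of -0.67 and of -0.51 after the correction. Over all genes tested, 30.2% were called lower and 29.8% higher in unstimulated KD cells.

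For the lists of genes that make or use ribosomes, the counts without TNF-α stand beside the 30.2% of all genes tested that were called lower and the 29.8% called higher. Of 18 tested elongation factors and other mRNAs known to carry a TOP tract, 7 fell and 4 rose, with a median of -0.23 and of -0.34 after the correction. EEF1B2 and EEF2, both elongation factors, fell by 0.98 and 0.94 on the log2 scale. Of 45 ribosome biogenesis factors 22 fell and 18 rose, with a median of -0.08 and of -0.13 after the correction. NOP58, of the box C/D snoRNPs, rose by 1.58 and RRP9, which binds the U3 snoRNA, fell by 1.29. Of 20 genes for RNA polymerase I and its factors, which transcribe rRNA, 10 fell and 6 rose, with a median of -0.33 and of -0.12 after the correction. Of 6 chaperones of ribosomal proteins 3 fell and 1 rose, with medians of -0.49 and -0.31. Of 18 tested mTORC1 components and regulators of TOP mRNAs 7 fell and 6 rose, with a median of 0.06 that turned to -0.04 after the correction. The mTORC1 target EIF4EBP1, a repressor of translation, fell by 1.30.

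None of these lists had a called gene between KD and control cells with TNF-α. In control cells TNF-α raised MYC, a transcription factor known to drive ribosome production, by 1.04 on the log2 scale (limma adjusted p = 1.88e-04), and RRP12, a biogenesis factor, by 0.55. In KD cells TNF-α raised MYC by 1.52. Of the 45 biogenesis factors 26 rose and 14 fell there, beside 31.1% and 31.4% of all genes tested.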

How the data were processed

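The 8 libraries, made from total RNA of U2OS cells, were sequenced by Novogene. The authors deposited FPKM values for 58735 genes per library. Multiplied by gene length, 100% of values above 0 were whole reads times 1 factor per library (tolerance 0.05 read), which gave the reads used here, and these factors match median-of-ratios scaling over all 8 libraries. Identifiers, positions and exon lengths equal GENCODE 29 on GRCh38. The submitters' processing notes name CASAVA 1.8, fastp, HISAT2 2.0.5, featureCounts 1.5.0-p3 and DESeq2 1.20.0, and the study's methods name edgeR. The strand of counting is not given in the sources used here, so overlapping genes on opposite strands are uncertain.

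Differences of log2(FPKM + 1) were tested in R 4.3.3 with limma 3.58.1, using a mean per group over 8 libraries (4 residual degrees of freedom), a variance trend and Benjamini-Hochberg adjustment over 16528 genes, those with 10 reads or more (at median depth) in 2 or more libraries and a total of 15 or more. FPKM values are not counts, so no count test was the main test. There were 5 comparisons, and the threshold was an adjusted p of 0.05. The added 1 shrinks fold changes of genes around 1 FPKM and lower. The fit was also run on simulated data, with noise drawn independently for each gene. Such data lack shifts that many genes of a library share, so the run does not bear on those.

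Members named are those with the 5 largest called rises and falls per comparison (the 3 smallest p where none was called), the 5 highest and 5 lowest levels, and 16 with a well-known role. Of other lists up to 3 called genes are named. RPS24, RPL7, RPL23A, RPS23 outside its comparison and RPL36AL were added after their values were seen. Some members that this rule names are not reported here by name, though counts and medians include them. The members and lists were chosen with earlier results of these data known. Alternatives were a pseudocount of 0.1, other scalings and filters, fewer libraries, a replicate block, voom on the recovered reads and a correction by GC content and gene length (splines, 5 degrees of freedom each). Other steps used Python 3.11.15 (pandas 2.3.3, numpy 2.4.6, matplotlib 3.10.9). Columns of per-sample values left unused numbered 0.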

Additional observations from a re-analysis of the deposited data

Results flagged for a closer look

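The effect of the WSB2 knockdown differed with and without TNF-α in limma's interaction test for 62 members in the positive direction and for 1 in the negative. Over all genes tested, 23.8% were called positive and 22.3% negative. Among the named members the difference on the log2 scale was 1.46 for RPL35, 1.44 for RPS28, 1.43 for RPL36, 1.40 for RPS9, 1.39 for RPL8 and -0.71 for RPL36A. The stalk genes RPLP0, RPLP1 and RPLP2 had 1.14, 1.2 and 1.16. That of RPLP2 was 0.62 after the correction for GC content and length (limma adjusted p = 0.0718), and its call was also lost without a filter on low reads (0.0833) and without unstimulated KD replicate 2, control TNF-α replicate 1 or either KD TNF-α library (0.0579 to 0.0795). For RPSA, RPS3, RPS19 and RPS26 of the small subunit it was 1.16, 1.18, 1.25 and 0.95. For RPL13A, RPL23, RPL10 and RPL41 of the large subunit it was 1.15, 0.89, 1.07 and 1.16, and RPL13A lost its call without a filter on low reads and without unstimulated KD replicate 2, control TNF-α replicate 1 or KD TNF-α replicate 1 (limma adjusted p of 0.0502 to 0.0599). The unstimulated KD libraries, which had more mitochondrial reads and a lower GC content than the other 6, enter every one of these values, and their part was not tested. With 2 libraries per group, outlying libraries could not be tested for.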

How the results depend on the processing

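Between KD and control cells without TNF-α, the count of members called lower stayed between 63 and 75 under every alternative run, and the count called higher was 1, or 2 after the GC and length correction. With libraries left out in turn the median ranged from -1.30 to -0.84. With TNF-α no member was called under any alternative, and the median was -0.0733 with total reads, -0.079 with upper-quartile factors, -0.063 after the correction and -0.053 to -0.041 with libraries left out. For TNF-α in control cells, 1 member was called higher with total reads, a mean of at least 1 CPM, voom or the correction, and 0 were called lower without a filter or with only the 4 libraries compared. With libraries left out, 0 to 2 were higher and 0 to 22 lower, and the median ranged from -0.29 to 0.19. For TNF-α in KD cells, 5 were called lower with total reads and 2 with upper-quartile factors, a mean of at least 1 CPM, only the 4 libraries compared, voom or the replicate block, and 1 to 2 with libraries left out. The median there was 0.58 with total reads, 0.86 with upper-quartile factors and 0.76 after the correction. The median interaction was 0.72 with total reads and 0.77 to 1.21 with libraries left out, which left 40 to 72 members called positive, and without a filter 44 were. The share of reads after TNF-α was 7.27% in control and 6.82% in KD cells of non-mitochondrial reads, and 7.57% and 7.06% with pseudogenes. The causes were not tested. Of the values of named members, 988 kept their direction and side of the threshold, 50 lost the call and 0 reversed. Same-numbered libraries deviated together only in the unstimulated groups (r = 0.35, otherwise -0.19 to 0.02), so the numbers were not taken as pairs. The replicate block left 70 members lower and 1 higher without TNF-α and 0 called with it, and gave 64 positive interactions. A crossed replicate block for TNF-α in control cells, added after seeing the data, called 1 member higher and 1 lower. The fit with only the 4 libraries compared was not run for the interaction.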
